A study of Mus musculus with 79 samples.

Results

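Immediate early genes were followed through bulk RNA-seq libraries of 2 brain regions. They were picked by symbol, and each symbol was matched to its gene identifier in the deposited table of raw counts, which lists genes by Ensembl identifier. The 10 genes, of the 55471, are Fos, Fosb, Junb, Arc, Egr1, Egr2, Egr3, Egr4, Nr4a1 and Npas4. The rule that chose them uses symbols and no measured value, but earlier results of these data were known when it was set. All 10 passed the filter on low counts in both regions.

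Immediate early genes are transcribed within minutes of synaptic activity, calcium entry or growth factor signals, because the factors that switch them on are already present in the cell and need only to be phosphorylated. CREB at cAMP response elements (CRE), and SRF with its partners at CArG boxes, are the best known of these. Most of the products are transcription factors themselves, whereas Arc acts at the synapse. The transcripts are short-lived, so that their level in dissected tissue follows recent activity in the hours before death rather than events of days earlier.

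The libraries came from male wild-type CD-1 mice. CSDS mice went through a modified chronic social defeat stress, in which they were attacked daily by a different aggressor and then returned to their home group of 4, and control (CTRL) mice lived in groups in the same room. Groups were tracked by video in the Social Box, an enriched arena. Each mouse was taken out of it once for an injection of saline or ketamine and then put back, and tissue was taken a week later. Punches of the medial prefrontal cortex (mPFC) and of the ventral hippocampus (vHipp) were cut from the frozen brains. Each of the 4 groups (CTRL saline, CTRL ketamine, CSDS saline and CSDS ketamine) had 10 libraries per region, except the mPFC of CSDS ketamine mice with 9. The 79 libraries came from 40 mice, and 39 mice had both regions. Social rank and Social Box were not given in the labels, so that mice could not be separated by them. In the study each group held dominant and subordinate mice. Treatments followed the labels. For some mouse numbers a display in the study shows the other treatment than the label of that number does, and whether both use the same numbering was not given. All ketamine comparisons rest on the labels.

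Total counts ran from 11726129 to 41767119 per library, with medians of 19519631 in the mPFC and 20121099.5 in the vHipp. Levels are given as CPM, the read counts scaled to library size with TMM factors. Most markers of the 2 regions followed the labels, with 4 of 5 cortical layer genes higher in the mPFC and 5 of 7 hippocampal subfield genes lower. The upper layer neuron gene Cux2 was higher in the mPFC by 2.55 on the log2 scale, and the dentate gyrus genes C1ql2 and Prox1 had differences of −3.28 and −2.84. Tle4 of the cortical layers (−0.54) and Wfs1 of the hippocampal subfields (1.45), named after their values were seen, passed in the other direction. A punch holds many cell types, so that fewer expressing cells and less RNA per cell cannot be told apart. The mice are separate animals, but stress was given to whole home groups whose mice shared a cage and a Social Box. The tests treat each mouse as independent, so that p-values measure the spread between mice and ignore what mice of a home group share.

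The promoters of 5 of the genes are shown, with matches to the sites of CREB and SRF marked. RefSeq windows on GRCm38.p6 were found for 7 of the 10 genes, and none was given for Arc, Egr1 or Egr3. Each window is the 250 bases before a transcription start, written 5′ to 3′ on the strand of the gene. No base of the 5 windows shown lies in an annotated exon. Those of Fosb and Npas4 are not shown and hold 6 and 250 exon bases. Capitals mark CRE half-sites, which are TGACG or its reverse complement CGTCA, and, in Egr2 only, also the CArG box.
Fos (chr12:85473640-85473889, plus strand): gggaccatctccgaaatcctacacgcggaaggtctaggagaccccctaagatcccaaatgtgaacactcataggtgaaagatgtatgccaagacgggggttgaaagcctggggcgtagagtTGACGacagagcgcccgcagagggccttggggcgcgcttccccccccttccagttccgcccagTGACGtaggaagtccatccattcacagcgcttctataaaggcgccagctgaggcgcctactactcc
Junb (chr8:84978749-84978998, minus strand): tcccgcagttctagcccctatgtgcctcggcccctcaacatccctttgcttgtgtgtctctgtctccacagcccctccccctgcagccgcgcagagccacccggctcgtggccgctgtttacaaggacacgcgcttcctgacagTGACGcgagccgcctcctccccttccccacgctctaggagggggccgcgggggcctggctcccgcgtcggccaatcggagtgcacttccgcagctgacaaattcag
Nr4a1 (chr15:101266596-101266845, plus strand): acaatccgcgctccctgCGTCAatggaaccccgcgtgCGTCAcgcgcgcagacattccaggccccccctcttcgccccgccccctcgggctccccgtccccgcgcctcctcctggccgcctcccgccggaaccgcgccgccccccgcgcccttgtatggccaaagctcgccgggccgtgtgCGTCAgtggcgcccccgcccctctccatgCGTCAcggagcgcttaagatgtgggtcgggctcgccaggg
Egr4 (chr6:85513590-85513839, minus strand): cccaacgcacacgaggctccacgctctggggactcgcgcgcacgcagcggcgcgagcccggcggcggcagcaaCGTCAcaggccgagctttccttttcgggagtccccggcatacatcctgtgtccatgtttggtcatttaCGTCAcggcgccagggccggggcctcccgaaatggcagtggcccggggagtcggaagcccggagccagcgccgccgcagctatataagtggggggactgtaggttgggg
Egr2 (chr10:67537619-67537868, plus strand): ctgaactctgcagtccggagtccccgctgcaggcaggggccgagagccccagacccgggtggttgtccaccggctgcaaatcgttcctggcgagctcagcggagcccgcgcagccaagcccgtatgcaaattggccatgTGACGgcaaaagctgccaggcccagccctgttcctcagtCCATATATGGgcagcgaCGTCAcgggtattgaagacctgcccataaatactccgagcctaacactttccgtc
A CRE half-site was found on either strand in at least 1 window of all 7 genes, against 17.8% of 32851 promoters of the same length. Egr2 has 5 windows, and 3 of them held one, while the share is counted over single windows. The Npas4 window, counted among the 7, lies wholly in annotated exon sequence. Fos had 2 half-sites, the nearer 66 bases before its start, and Nr4a1 had 4, the nearest 40 bases before its start. The half-site also lies inside the full CRE TGACGTCA, which none of the 7 genes had in these windows and 1.55% of all promoters had. A CArG box was found in Egr2 only, and in 1.47% of all promoters. The EGR site GCGGGGGCG stood in the windows of Fosb and Nr4a1 and in 2.57% of all promoters. The AP-1 site TGANTCA stood in none of the 7 and in 6.75% of all. These are matches of letters in a short window, and no binding was measured.

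All 10 genes were detected in both regions of these mice, at levels far apart from each other. Levels between genes are compared here as CPM per kilobase of the gene length given with the counts. The order of the genes therefore depends on that length too. In the mPFC the order of the medians over 39 libraries was Egr1 at 36.5, Egr3 at 28.3, Nr4a1 at 20.2, Arc at 18.6 and Junb at 17.0 CPM per kilobase. Egr4 followed at 7.69, Npas4 at 3.74, Fos at 3.48, Fosb at 2.18 and Egr2 at 0.725 CPM per kilobase. Nr4a1, Arc and Junb could not be ordered, since Nr4a1 exceeded Arc in 21 of 39 libraries and Arc exceeded Junb in 21 of 39. Npas4 and Fos could not be ordered either, with Npas4 higher in 19 of 39. Egr1 was above Egr3 in 28 of the 39 libraries, and Junb was above Egr4 in all 39.

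In the vHipp the order began with Egr3 at 21.2, Arc at 17.8, Egr1 at 12.0, Junb at 11.6 and Nr4a1 at 7.06 CPM per kilobase. Egr4 had 5.60, Fosb 1.30, Npas4 1.10, Fos 0.824 and Egr2 0.142 CPM per kilobase. Egr4 and Fosb, neighbours in that order, were the only neighbours in either region whose ranges did not overlap. Per kilobase, Arc was above Egr1 in all 40 vHipp libraries and below it by median in the mPFC. Before division by their lengths (3.057 and 4.484 kilobases) the vHipp medians of Arc and Egr1 were close, at 54.5 and 53.7 CPM. Egr2 was the lowest of the 10 in both regions, and its vHipp values rest on few counts.

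**Figure D1:**
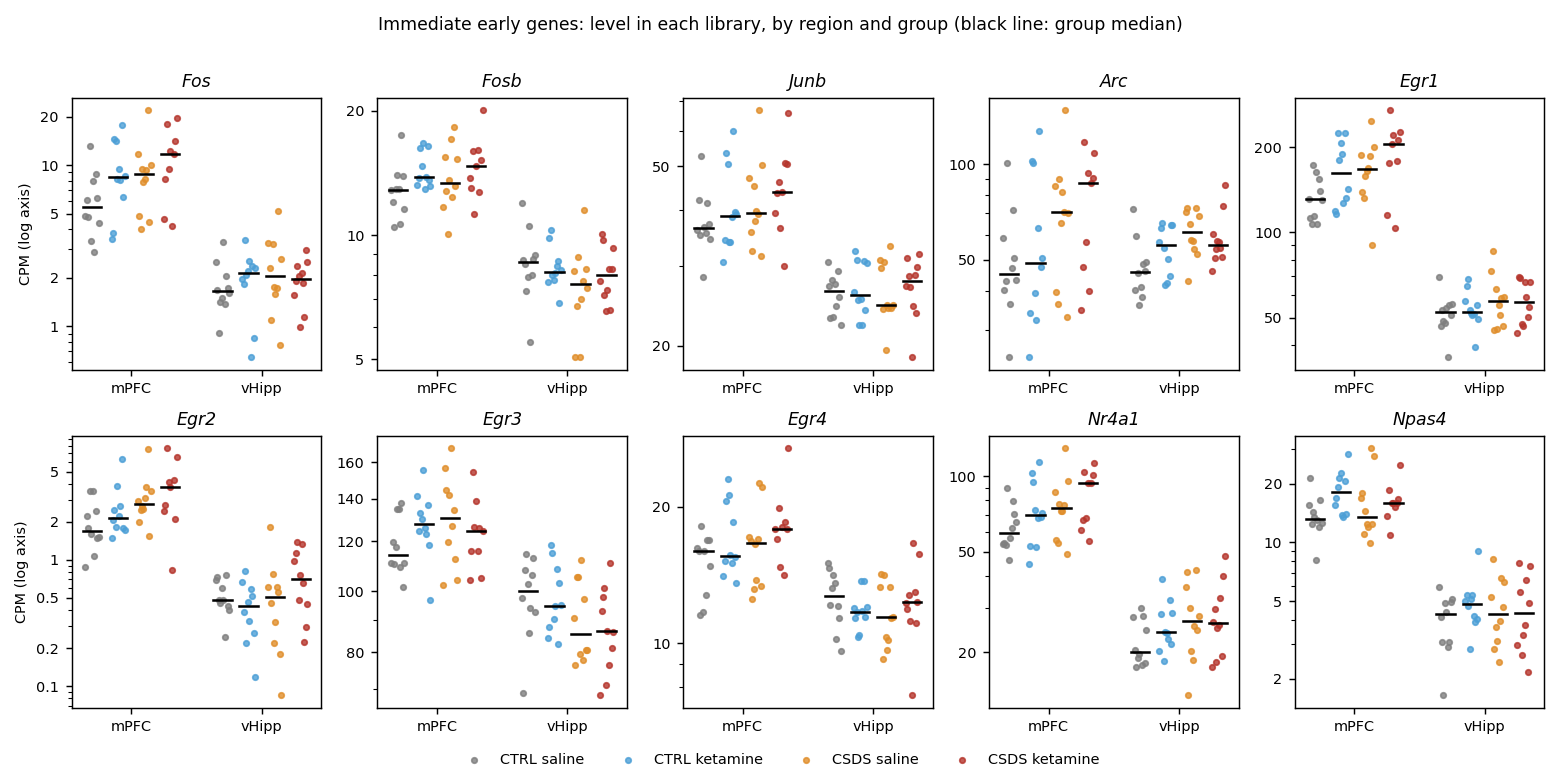
Level of each immediate early gene in every library, in CPM on a log axis, for the mPFC (left) and vHipp (right) of the 4 groups, with a black line at the group median. Within a region the groups overlap in every panel, and for Egr1 all mPFC libraries (lowest 89.98 CPM) lie above all vHipp libraries (highest 85.9 CPM).

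In all, 9 of the 10 genes were higher in the mPFC than in the vHipp, and Arc did not pass the test. Called genes had an adjusted p under 0.05 in the edgeR quasi-likelihood test after Benjamini-Hochberg correction across 31534 genes. By that rule 24.5% of all genes were higher in the mPFC. The difference (mPFC over vHipp, mean of the 4 groups) is given on the log2 scale with its SE.

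Fos, the partner of Jun proteins in AP-1, ranged from 2.89 to 21.9 CPM in the mPFC with a median of 8.20. In the vHipp it ranged from 0.643 to 5.19 CPM with a median of 1.94. The ranges overlapped between mice, but in all 39 mice the mPFC was the higher of the pair. The difference was 2.12 ± 0.15 (SE, edgeR adjusted p = 4.21e-22). Fosb, whose counts do not separate the full-length form from the stable truncated form, had medians of 13.6 CPM in the mPFC and 8.13 CPM in the vHipp and differed by 0.78 ± 0.05. Junb, another AP-1 subunit, had medians of 39.2 and 26.7 CPM and differed by 0.64 ± 0.06. Both were higher in the mPFC in 39 of 39 mice. Junb shares 173 of its 2301 exon bases with Prdx2 on the opposite strand, and whether the counting used strand was not given.

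The 4 Egr genes encode zinc finger factors that bind GC-rich sites. Egr1 ranged from 89.98 to 270.0 CPM in the mPFC (median 164) and from 36.3 to 85.9 CPM in the vHipp (median 53.7). It was the only one of the 10 genes whose mPFC libraries all lay above all vHipp libraries, which 1.74% of all genes did. The difference was 1.55 ± 0.07 (edgeR adjusted p = 1e-33). Egr2 ranged from 0.828 to 7.64 CPM in the mPFC and from 0.0846 to 1.81 CPM in the vHipp, and differed by 2.30 ± 0.17, the largest of the 10 in this comparison. Egr3 and Egr4 differed least of the 9 genes called, by 0.43 ± 0.04 and 0.46 ± 0.05, with the mPFC higher in 38 and 36 of 39 mice.

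Nr4a1, an orphan nuclear receptor, had medians of 70.9 CPM in the mPFC and 24.8 CPM in the vHipp, and differed by 1.51 ± 0.09. Npas4, a neuronal factor induced by calcium entry, had medians of 15.5 and 4.54 CPM and differed by 1.83 ± 0.11. Both were higher in the mPFC of all 39 mice. Arc, which binds endocytic proteins and lowers the number of surface AMPA receptors, ranged from 24.7 to 147.8 CPM in the mPFC and from 36.0 to 86.1 CPM in the vHipp. Its mPFC range enclosed the vHipp range, and 21 of 39 mice were higher in the mPFC. The difference in Arc was 0.22 ± 0.11 (edgeR adjusted p = 0.0942), and 1.96 SE on either side ran from 0.0031 to 0.44, although the unadjusted edgeR p was 0.0503. Without 1 of the 10 sets of 4 mice, Arc passed the test in 2 instances, without set 1 (edgeR adjusted p = 0.0282) and without set 2 (edgeR adjusted p = 0.0237). The Arc difference fell to 0.13 without set 4 (edgeR adjusted p = 0.375) and to 0.12 without set 8 (edgeR adjusted p = 0.396). With the mouse as a block, which pairs the regions of each mouse, the same 9 genes were called, and Arc differed by 0.10 (edgeR adjusted p = 0.407).

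Other genes of the response did not share 1 direction. Over all genes, 24.5% were higher in the mPFC and 24.4% were lower. Of 25 other rapid response genes, 11 were higher in the mPFC and 6 were lower. The AP-1 subunit Jun had a difference of −1.81 on the log2 scale, and Nr4a2 and Nr4a3, the relatives of Nr4a1, had −2.25 and −1.91. Of 15 delayed activity-regulated genes, 10 were higher and 5 were lower. Nptx2, which clusters AMPA receptors, had a difference of 1.69, and the neurotrophin gene Bdnf had −1.09. Of 13 upstream kinases and factors, 5 were higher, with Mef2c at 2.70, and 7 were lower. Of 7 glucocorticoid-responsive genes, 1 was higher (Cdkn1a, 1.55) and 5 were lower, with the FK506-binding chaperone partner Fkbp5 at −1.61.

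Cell type markers differed between the regions as well. All 5 excitatory neuron markers were lower in the mPFC, with a median of −0.31, and all 5 erythroid markers were higher, with a median of 1.02. No microglial and no oligodendrocyte marker of 5 each passed the edgeR test, with 1 and 0 at an unadjusted p under 0.05. The part of cell composition in the differences of the 10 genes was not tested.

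Stress and ketamine were compared within each region in 1 fit of the 4 groups. None of the 10 genes passed the adjusted threshold in any of the 7 comparisons in either region, by edgeR or by DESeq2, and edgeR called 0 genes of all those tested. The counts below are at an unadjusted p under 0.05. The mean stress effect is CSDS minus CTRL averaged over both treatments, and the mean ketamine effect is ketamine minus saline averaged over CTRL and CSDS. All are on the log2 scale with the SE.

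In the mPFC, Egr2 had the largest mean difference between CSDS and CTRL mice of the 10 genes. It ranged from 0.877 to 3.50 CPM in CTRL saline mice (median 1.70) and from 1.49 to 6.23 CPM in CTRL ketamine mice (median 2.13). CSDS saline mice ranged from 1.53 to 7.56 CPM (median 2.77) and CSDS ketamine mice from 0.828 to 7.64 CPM (median 3.78). The group medians were higher in both CSDS groups, while the ranges overlapped and the single lowest library was a CSDS ketamine mouse. The mean stress effect was 0.62 ± 0.21 (edgeR p = 0.00527, adjusted p = 1.00).

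Egr1 had medians of 130.9 and 161.5 CPM in CTRL saline and CTRL ketamine mice, and 167 and 205 CPM in the CSDS groups. Its mean stress effect was 0.26 ± 0.11 (edgeR unadjusted p = 0.0197). Nr4a1 had a mean stress effect of 0.23 ± 0.11 (edgeR unadjusted p = 0.0497). Thus 3 of the 10 genes had an unadjusted p under 0.05, all higher in CSDS, against 3.52% of the 28993 genes in either direction and 1.55% higher. Fos (0.41 ± 0.21) and Arc (0.38 ± 0.20) had larger estimates than Egr1 with p-values of 0.0598 and 0.0620 by edgeR. The other 5 genes had smaller estimates, with Junb at 0.15, Egr4 at 0.11, Fosb at 0.08, Egr3 at 0.04 and Npas4 at 0.03. All 10 estimates were above 0, which 49.8% of all genes were, although Npas4 ran from −0.049 to 0.088 without 1 set of mice at a time. These genes vary together from mouse to mouse, as given further on, so that their directions are not independent. After group means were subtracted, the summed level of the excitatory neuron markers had r = −0.50 with Arc, −0.46 with Fos and −0.41 with Egr1 over the 39 mPFC libraries. The sum of the oligodendrocyte markers had r = 0.40 with Fos and 0.40 with Arc. None of the 5 excitatory neuron and none of the 5 oligodendrocyte markers had an unadjusted edgeR p under 0.05 for stress or ketamine there. Of all the cell type lists 1 marker did for stress, Ttr of the choroid plexus (−2.03, edgeR unadjusted p = 0.00437), and 1 for ketamine, Rgs9 of the striatal neurons (0.42, edgeR unadjusted p = 0.0100). The part of cell composition in the estimates was not tested.

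For ketamine in the mPFC, Fos had the largest estimate of the 10 genes. It had medians of 5.47 CPM in CTRL saline, 8.38 in CTRL ketamine, 8.78 in CSDS saline and 11.8 in CSDS ketamine mice. The lowest and highest values were 2.89 and 13.2 CPM, 3.50 and 17.8 CPM, 4.01 and 21.9 CPM, and 4.20 and 19.4 CPM in the same order, so that every pair of groups overlapped. The mean ketamine effect on Fos was 0.45 ± 0.21 (edgeR unadjusted p = 0.0435). Egr1 had 0.25 ± 0.11 (p = 0.0239 by edgeR) and Egr4 had 0.17 ± 0.08 (p = 0.0426 by edgeR). Again 3 of the 10 genes had an unadjusted p under 0.05, where 3.07% of all genes did in either direction and 1.31% were higher. All 10 estimates were above 0, as were 49.3% of all genes, although Egr3 ran from −0.019 to 0.040 without 1 set of mice at a time. The other 7 were Egr2 at 0.33, Npas4 at 0.20, Nr4a1 at 0.18, Arc at 0.17, Fosb at 0.12, Junb at 0.11 and Egr3 at 0.02.

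The counts in the mPFC depended on which mice were included. Mouse 15, a CSDS saline mouse, had the highest level of all 39 mPFC libraries in 5 of the 10 genes and was among the top 3 in 9. Its total of 20273868 counts was near the median. Without it, 2 of the 10 genes had an unadjusted p under 0.05 for stress, Egr2 at 0.50 and Egr1 at 0.22, against 3.65% of all genes, and 7 of the 10 did for ketamine against 3.09%. With the set of 4 mice as a covariate the counts were 5 for stress (3.75% of all genes) and 1 for ketamine (2.95%). Without 1 set at a time they ran from 1 to 5 for stress, where 3.05% to 4.18% of all genes passed, and from 0 to 4 for ketamine, where 2.61% to 4.83% did, with 0 for ketamine when set 3, 6 or 10 was left out, none of which held mouse 15.

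**Figure D2:**
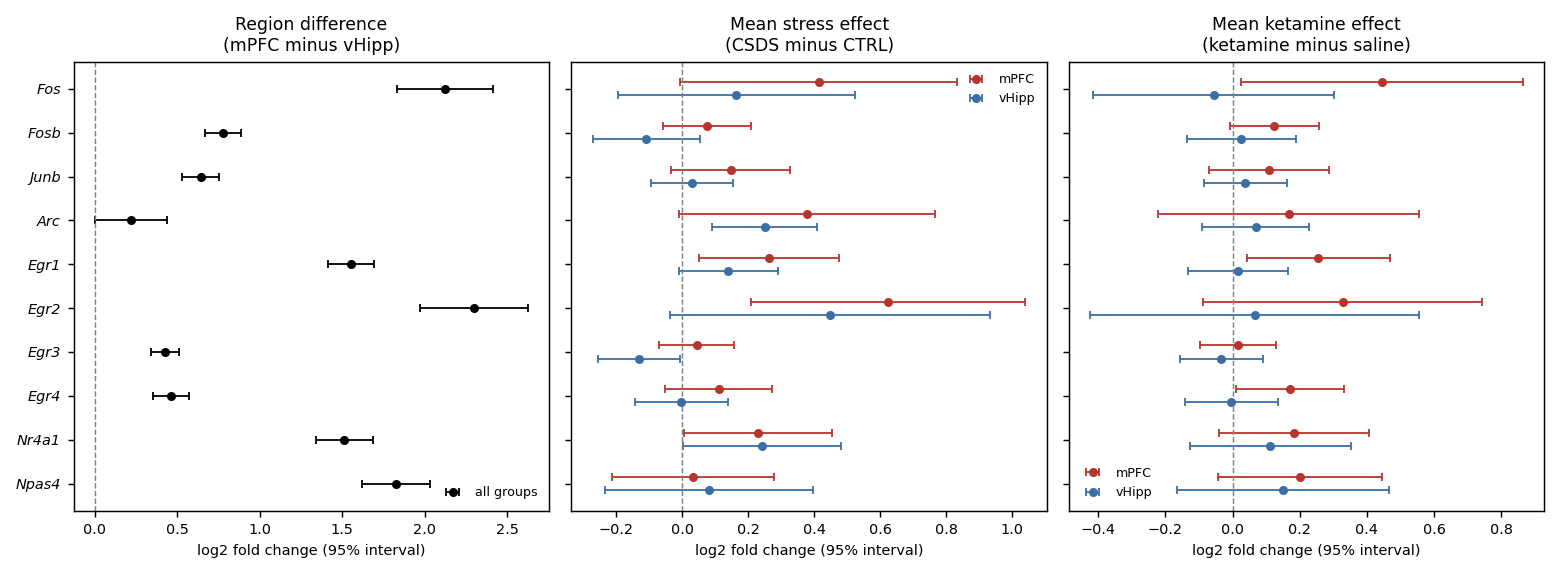
Log2 fold changes of each gene with 95% intervals (1.96 SE) for the region difference over all groups (left), the mean stress effect (middle) and the mean ketamine effect (right), the latter in the mPFC (red) and vHipp (blue). The region differences reach 2.30, and in the mPFC all 10 estimates lie above 0 for stress and for ketamine, up to 0.62 for Egr2 under stress and 0.45 for Fos under ketamine, where no gene passed the adjusted threshold.

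In the vHipp, Arc had the smallest p of the 10 genes for stress. It ranged from 36.0 to 72.5 CPM in CTRL saline mice (median 45.7) and from 41.5 to 65.4 CPM in CTRL ketamine mice (median 55.7). CSDS saline mice ranged from 42.9 to 72.9 CPM (median 61.4) and CSDS ketamine mice from 46.0 to 86.1 CPM (median 55.7). The median of CTRL saline mice lay below the other 3, which overlapped it. The mean stress effect on Arc was 0.25 ± 0.08 (edgeR p = 0.00371, adjusted p = 0.340). In saline mice alone the difference was 0.38 ± 0.12 (edgeR p = 0.00199, adjusted p = 0.825), and Arc was 1 of 10 there at an unadjusted p under 0.05, against 5.57% of all genes.

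Egr3 was the only other gene of the 10 with an unadjusted p under 0.05 for stress in the vHipp. Its medians were 100.1 and 94.9 CPM in CTRL saline and CTRL ketamine mice, and 85.7 and 86.3 CPM in the CSDS groups. The mean stress effect was −0.13 ± 0.06 (edgeR p = 0.0457, adjusted p = 0.504), with the CSDS mice lower. Of the other 8 genes, Egr2 had 0.45, Nr4a1 0.24 ± 0.12 (edgeR unadjusted p = 0.0549), Fos 0.16, Egr1 0.14 and Npas4 0.08. Junb had 0.03, Egr4 −0.0018 and Fosb −0.11. Without 1 set of mice at a time Egr2 ran from 0.21 to 0.51 and Fos from 0.060 to 0.27. The 2 of 10 stand against 9.71% of the 28991 genes tested there. With DESeq2 (8.84% of all genes), and with edgeR's own expression filter (11.8%), 1 of the 10 genes had an unadjusted p under 0.05 in place of 2.

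Markers of other cell types also differed with stress in the same vHipp libraries, none at an adjusted p under 0.05. At an unadjusted p under 0.05, 5 of 5 microglial, 4 of 5 astrocyte, 4 of 5 endothelial and 2 of 5 choroid plexus markers were higher in CSDS mice, and none of these was lower. Examples were Cx3cr1 of microglia at 0.33, Flt1 of endothelial cells at 0.28 and Ttr of the choroid plexus at 3.59 on the log2 scale. The sums of the lists did not all follow. That of the 5 choroid plexus markers had medians of 22.0 and 21.0 CPM in CTRL saline and CTRL ketamine mice and 23.9 and 19.7 CPM in the CSDS groups, and its highest value was 729 CPM in CSDS saline mice and 26.4 to 29.6 CPM in the other 3 groups. The astrocyte sum had a lower median in CSDS ketamine (1046.1 CPM) than in CTRL ketamine mice (1183 CPM), and the endothelial sum had 133.8 and 134.5 CPM in them. Mouse 11, a CSDS ketamine mouse, had the highest sum of 3 lists, with 473 CPM of the microglial, 302 CPM of the endothelial and 2928 CPM of the astrocyte markers, where the next mouse had 285, 231 and 1821 CPM. Of 7 markers of hippocampal subfields 2 were lower in CSDS mice at an unadjusted p under 0.05, the dentate gyrus genes C1ql2 (−0.48) and Prox1 (−0.43). Another 2 were higher, Spink8 (0.78) and Fibcd1 (0.84), genes of the CA1 field that were named after their values were seen. By the same threshold 2 of 6 interneuron markers were higher (Vip and Pvalb, list median 0.12), as were 2 of 6 striatal markers (Adora2a and Ppp1r1b, list median 0.0057) and 1 of 5 excitatory neuron markers (Camk2a, list median −0.021), and none of these lists had a lower one. Of the cortical layer markers 1 was higher and 1 lower, 1 erythroid marker was higher and no oligodendrocyte marker passed. Over these libraries, after group means were subtracted, Egr3 had r = −0.57 with the microglial sum, −0.54 with the endothelial sum and −0.51 with the astrocyte sum. Without mouse 11 these were −0.56, −0.50 and −0.48. Arc had r = 0.17 with the microglial sum and 0.37 with the sum of excitatory neuron markers. These values share libraries and scaling, and the part of cell composition or of the dissected subfields in the 2 differences was not tested.

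No gene of the 10 had an unadjusted p under 0.05 for ketamine in the vHipp, by edgeR or DESeq2, where 3.39% of all genes did by edgeR. The estimates were 0.15 for Npas4, 0.11 for Nr4a1, 0.07 for Arc, 0.07 for Egr2, 0.04 for Junb, 0.03 for Fosb, 0.02 for Egr1, −0.0035 for Egr4, −0.03 for Egr3 and −0.06 for Fos. Fos had vHipp medians of 1.65 CPM in CTRL saline, 2.14 in CTRL ketamine, 2.04 in CSDS saline and 1.98 in CSDS ketamine mice. Of the cell type lists there, 3 of 5 choroid plexus markers were lower in ketamine mice at an unadjusted edgeR p under 0.05, with Folr1 at −2.21 and Ttr at −3.21, and 1 of 6 striatal markers was higher (Rgs9, 0.30). The highest choroid plexus sum, given above, was in CSDS saline mice, which enter this comparison too.

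Among the comparisons of single groups in the mPFC, ketamine in CTRL mice gave Npas4 0.41 ± 0.17 (edgeR unadjusted p = 0.0243) and Egr1 0.32 ± 0.15 (edgeR unadjusted p = 0.0427), which are 2 of 10 against 3.64% of all genes. Npas4 medians were 13.2 CPM in CTRL saline and 18.0 CPM in CTRL ketamine mice, with ranges of 8.08 to 21.3 and 13.5 to 28.4 CPM that overlapped. Ketamine in CSDS mice gave 0 of 10 against 4.32%, with Npas4 at −0.0032 ± 0.18. The interaction of stress and ketamine, which tests the difference between those effects, gave 0 of 10 against 5.31%, and its smallest p was 0.108 for Npas4 by edgeR. The 2 ketamine effects on Npas4 were therefore not shown to differ. Stress in saline mice gave Egr2 0.68 (edgeR unadjusted p = 0.0300) and Egr1 0.33 (edgeR unadjusted p = 0.0375), 2 of 10 against 2.94%, and stress in ketamine mice gave 0 of 10 against 5.8%. Comparisons that share a group share its libraries, so that these values are not independent of each other.

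In the vHipp, stress in ketamine mice gave Egr2 0.77 ± 0.35 (edgeR unadjusted p = 0.0335), 1 of 10 against 5.42%, at levels below 2 CPM. Ketamine gave 0 of 10 in CTRL mice (2.88% of all genes) and in CSDS mice (2.9%), and so did the interaction (2.84%). The difference between regions in the stress effect was tested in the fit of all 79 libraries. Egr3 had a difference of 0.18 (edgeR unadjusted p = 0.0405), 1 of 10 where 6.86% of all genes did. With the mouse as a block, Egr3 (0.19, edgeR unadjusted p = 0.0206) and Fosb (0.21, edgeR unadjusted p = 0.0366) had an unadjusted p under 0.05, 2 of 10 against 7.58%. For the ketamine effect the count was 0 of 10 against 3.46%, and with the block Fos had 0.47 (edgeR unadjusted p = 0.0259), 1 of 10 against 2.56%. None of the 10 passed the adjusted threshold in either comparison, with or without the block.

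No other gene of the activity response passed the adjusted edgeR threshold, and the counts are again at an unadjusted p under 0.05. For stress in the mPFC it was 1 of 25 other rapid response genes (Ier2, 0.24), 0 of 15 delayed genes and 0 of 13 upstream regulators, where 3.52% of all genes did. For ketamine in the mPFC it was 1 of 25 other rapid response genes (Fosl2, 0.14), 0 of the 15 and 0 of the 13, against 3.07% of all genes. For stress in the vHipp, 2 of the 25 were higher and 2 lower, among them Jun (−0.27) and the antiproliferative gene Btg2 (−0.22). There 1 of the 15 delayed genes was higher (Rgs2, a regulator of G protein signalling, 0.16) and 2 were lower, with Scg2 at −0.23. Of the 13 upstream regulators 3 were lower, with Mef2d at −0.14 and Mef2c at −0.20. These 4 of 25, 3 of 15 and 3 of 13 stand against 9.71% of all genes. For ketamine in the vHipp it was 1 of the 25 (Trib1, 0.20), 0 of the 15 and 0 of the 13, against 3.39%. Of the 7 glucocorticoid-responsive genes 0 passed for stress in the mPFC, 1 was lower for ketamine there (Ddit4, −0.13), 2 were higher for stress in the vHipp (Tsc22d3 at 0.11 and Errfi1 at 0.07) and 0 passed for ketamine in the vHipp.

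The 10 genes differed widely in how much mice of the same group varied. The spread is given as the SD of log2 CPM within groups, beside that of all genes with a mean of at least 1 CPM. In the mPFC Fos had an SD of 0.74, Egr2 0.71 and Arc 0.68, and 1.69%, 1.90% and 2.25% of all genes varied as much. Egr3 had 0.19 there, near the median of 0.177 over all genes, and 45.2% of genes varied as much. In the vHipp Egr2 had 0.85, Fos 0.65 and Npas4 0.55, against a median of 0.207 over all genes. Egr2 lies below 1 CPM there, outside the set it is compared with, and its SD holds more counting error. Arc was among the most variable genes in the mPFC and not in the vHipp, with an SD of 0.27 that 35.2% of genes reached. The correlation of a gene's level with the log2 total count lay between −0.23 and 0.12 in the mPFC and between −0.01 and 0.35 in the vHipp.

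**Figure D3:**
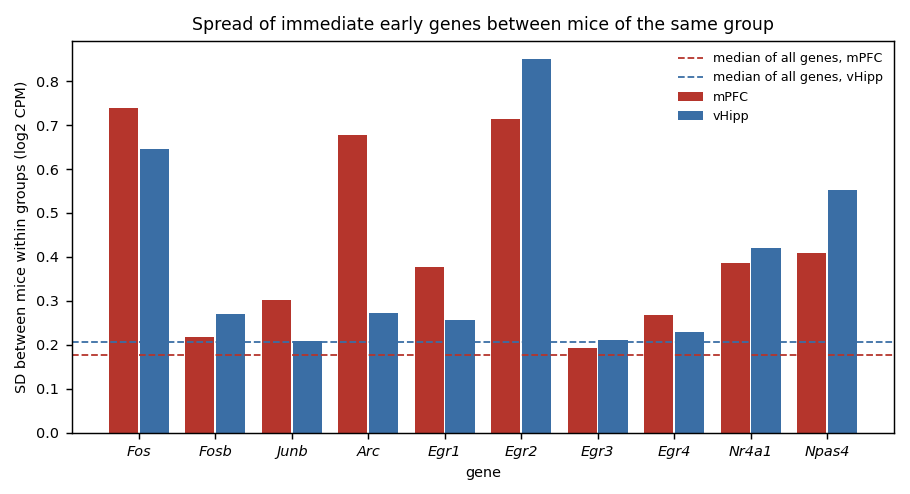
SD of log2 CPM between mice of the same group for each gene, in the mPFC (red bars) and vHipp (blue bars), with dashed lines at the median of all genes (0.177 and 0.207). Fos and Egr2 are far above the lines in both regions, Arc in the mPFC with 0.68 against 0.27 in the vHipp, and Egr3 near the lines.

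Within a region most of the genes were high or low in the same mice. In the mPFC the median Pearson's r over the 45 pairs of genes was 0.51 after group means were subtracted (n = 39), and 23 pairs had r of at least 0.5. Arc and Nr4a1 had r = 0.94, Junb and Nr4a1 0.91, Fos and Nr4a1 0.89 and Fos and Egr1 0.88. In the vHipp the median was 0.42 (n = 40), 11 pairs had r of at least 0.5, and the highest was 0.66. Without 1 mouse at a time the median ran from 0.43 to 0.55 in the mPFC and from 0.38 to 0.43 in the vHipp. Among expressed genes, 0.102% to 2.86% reached r of 0.5 with a given gene of the 10 in the mPFC, and 0.225% to 11.1% did in the vHipp.

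Egr3 had the lowest median r of the 10 genes in each region. Its median r with the other 9 was 0.09 in the mPFC and −0.04 in the vHipp, and with Npas4 its r was −0.30 and −0.33. With the means of the library sets, groups of 4 mice described further on, also subtracted, the r with Npas4 was −0.16 and −0.04, and the medians were 0.05 and −0.03. In the mPFC it had r = 0.42 with Fosb and 0.39 with Egr2, and in the vHipp 0.11 and −0.08. Without Egr3 the median over 36 pairs was 0.63 in the mPFC and 0.45 in the vHipp. These correlations are descriptions, since genes of 1 library share its dissection, depth and scaling.

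**Figure D4:**
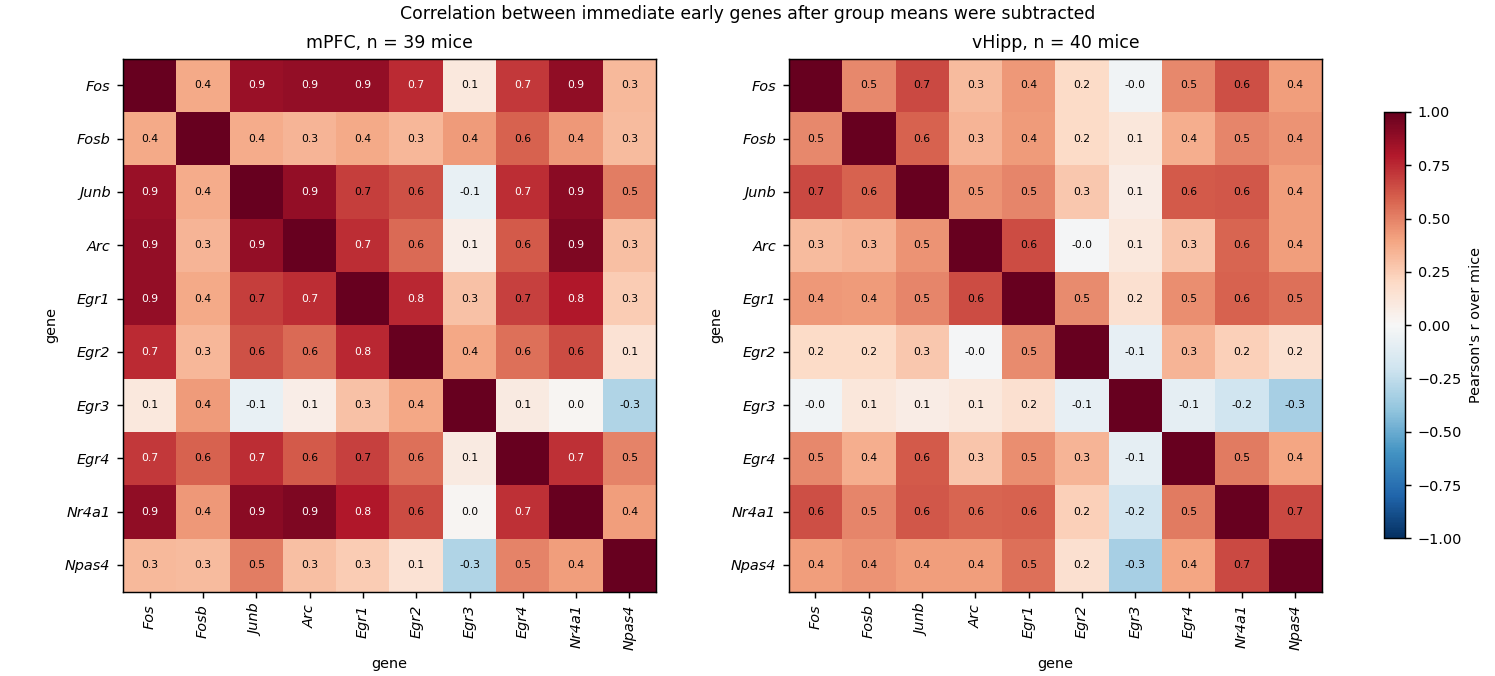
Pearson's r between each pair of the 10 genes after group means were subtracted, over 39 mPFC libraries (left) and 40 vHipp libraries (right), from blue (−1) to red (1). Fos, Junb, Arc, Egr1 and Nr4a1 form the darkest block in the mPFC, with r up to 0.94, and Egr3 is pale with most genes in both regions.

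The genes outside the 10 whose level followed them most closely were found among genes of a mean of at least 1 CPM. In the mPFC the highest mean r with the 10 belonged to Midn (0.62), 1700016P03Rik (0.59), the clock gene Per1 (0.56), the rapid response gene Ier2 (0.56) and the kinase-like gene Stk40 (0.56). The closest single gene was Dusp1, a phosphatase of MAP kinases, for Arc (0.88). It was Ier2 for Junb (0.86), Per1 for Nr4a1 (0.86), the salt-inducible kinase Sik1 for Fos (0.81) and Homer1, a postsynaptic scaffold gene, for Egr3 (0.78). In the vHipp the 5 genes were Sez6, Rara, Cacna1g, Sik3 and Gpr161, with a mean r between 0.45 and 0.46. Midn was closest to Nr4a1 there (0.86), Creg2 to Egr3 (0.83) and Dusp1 to Fos (0.66).

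Levels in the mPFC and vHipp of the same mouse were compared after group means were subtracted in each region, over 39 mice. The question is whether a mouse that is high in one region is high in the other, apart from its group. Of the 10 genes, 3 (Fos, Npas4 and Junb) had a positive correlation that passed a permutation test adjusted over 27874 genes. By the same rule 18.4% of all genes passed, and 30.4% of genes with a mean of at least 1 CPM in both regions did. The count of 3 in 10 was thus close to the share among expressed genes. The median r over the 10 genes was 0.28, against 0.168 over all genes and 0.294 over expressed genes.

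Fos had r = 0.48 (permutation p = 0.00293, adjusted p = 0.0206) and rho = 0.56 (permutation p = 0.000420). Npas4 had r = 0.48 (permutation p = 0.00268, adjusted p = 0.0192) and rho = 0.48 (permutation p = 0.00299). Junb had r = 0.46 (permutation p = 0.00575, adjusted p = 0.0345) and rho = 0.46 (permutation p = 0.00570). Without the 2 mice farthest from the median of the mPFC level, r was 0.44 for Fos (permutation p = 0.0109), 0.42 for Npas4 (permutation p = 0.0117) and 0.34 for Junb (permutation p = 0.0486).

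Mouse 15 was high in both regions. It stood 1.42 log2 units above its group mean in the mPFC and 1.32 above it in the vHipp for Fos. For Npas4 these values were 0.98 and 0.58, and for Junb 0.68 and 0.34. Without it, only Npas4 of the 10 stayed past the threshold (r = 0.45, permutation adjusted p = 0.0358), while Fos had r = 0.41 (permutation adjusted p = 0.0682) and Junb r = 0.40 (permutation adjusted p = 0.102). Among expressed genes 28.8% passed without that mouse.

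The other 7 genes had smaller correlations that did not pass. Arc had r = 0.34 (permutation adjusted p = 0.144) and Nr4a1 r = 0.33 (permutation adjusted p = 0.177). Egr4 had 0.23, Fosb 0.18, Egr3 0.14, Egr1 0.11 and Egr2 0.05. The library numbers fall into 10 sets of 4 mice, 1 of each group, which are not a labelled batch. When the means of these sets were also subtracted, Arc reached r = 0.63, Nr4a1 0.51 and Fos 0.56, and 5 of the 10 genes passed (with Npas4 0.47 and Junb 0.47). By that rule 12.8% of all genes and 19.8% of expressed genes passed, and the median r was 0.44 over the 10 genes against 0.131 over all genes and 0.215 over expressed genes. The permutations stayed within groups but did not keep the sets, so that p-values of this rule may be too small.

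**Figure D5:**
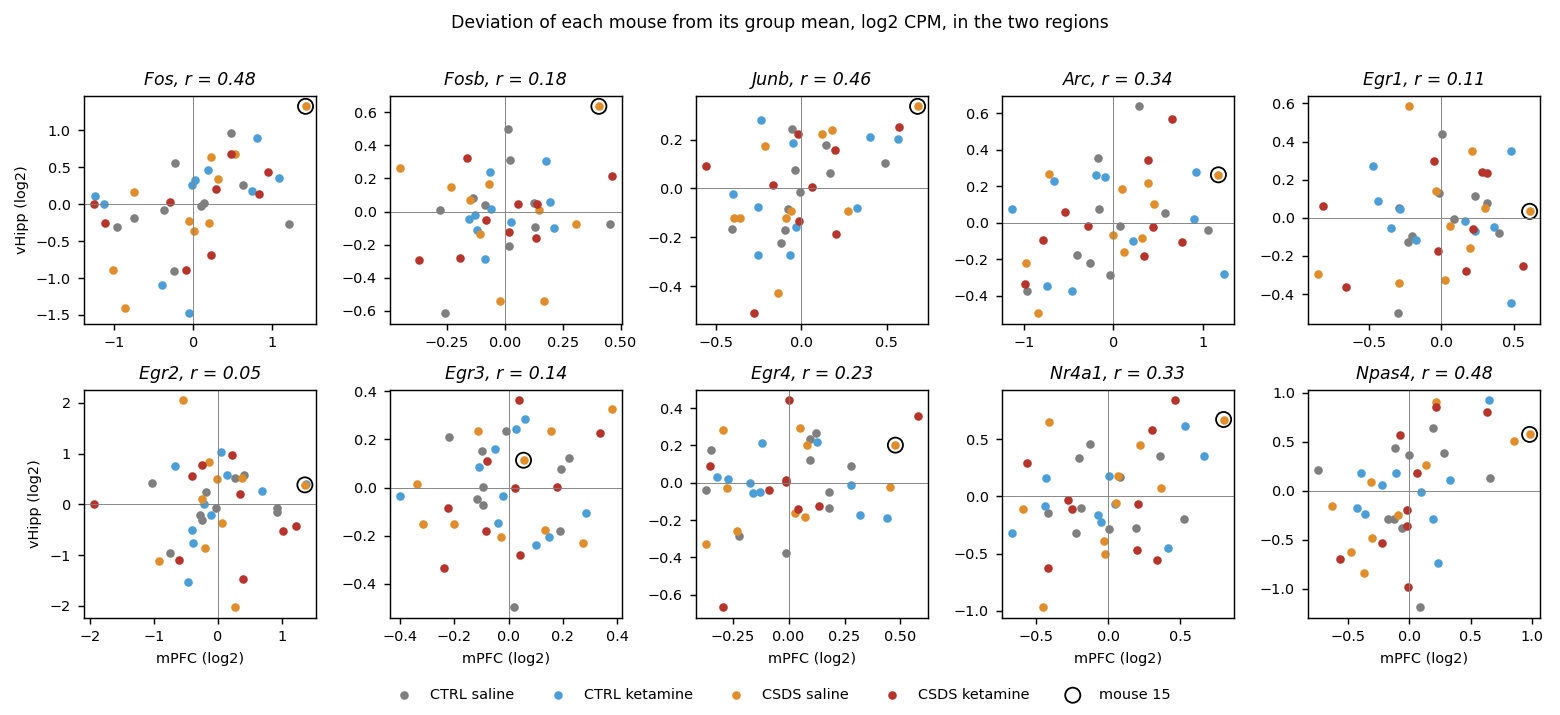
Level in the mPFC (horizontal axis) against the vHipp (vertical axis) of the same mouse for each gene, as log2 CPM after the group mean was subtracted, with 39 mice coloured by group and a ring around mouse 15. Fos, Npas4 and Junb have r of 0.48, 0.48 and 0.46, and the Egr genes have r between 0.05 and 0.23.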

How the data were processed

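RNA was sequenced from 39 mPFC and 40 vHipp punches (Illumina Stranded mRNA libraries, paired reads). The deposited file holds raw counts per gene, which the authors made on GRCm38 and did not normalise. The submitters' processing notes name bcl2fastq 2.20.0.422 and CASAVA, and the aligner and counter were not given in the sources used here. Symbols were found for 55230 of 55471 identifiers. Groups came from the labels. Social box, a covariate of the study's own model, was not in them and was not used here.

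The 10 genes and all gene lists were chosen with earlier results of these data known. The rule names all 10 in every comparison. The text gives all 10 for the regions, both mean effects and the correlation between regions, and for effects in single groups and for differences of effects it gives the count and those of small p. Of other lists, called genes were named (up to 4 of smallest p), or up to 2 of smallest p where none passed. Tle4, Wfs1, Spink8 and Fibcd1 were named outside this rule, after their values were seen. Likeness was ranked by mean Pearson's r.

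Genes with more than 10 counts in all and detected in more than 3 libraries were fitted with edgeR 4.0.16 (R 4.3.3), TMM scaling and the quasi-likelihood test, two-sided, adjusted by Benjamini-Hochberg over all genes tested, with a threshold of 0.05. Each region was fitted with its 4 groups, and regions were compared in 1 fit of 79 libraries. Correlations used log2 CPM (prior count 0.5), and 1e+05 permutations of mice within groups. DESeq2 1.42.0, RLE scaling, other filters, a covariate for the library set and leaving out each set were alternatives. Leaving out mouse 15 or, for marker sums, mouse 11 was added after the data were seen. The fits were tested on simulated data. No libraries of a group were near copies, the smallest chi-square per gene of any pair being 4.65.

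Pairing of regions comes from the mouse number in the labels. The deviations of the paired libraries over genes had a correlation between 0.0188 and 0.240 (median 0.0942), and 32 of 39 libraries had their highest with their own number.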

Additional observations from a re-analysis of the deposited data

Results flagged for a closer look

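In 9 of the 80 combinations of gene, region and group, the highest library lay apart from the rest by Dixon's test. For independent groups of normally distributed values that happens in about 1 of 20. CPM were used without a log and the combinations share libraries, so that the 9 cannot be set against that rate. Of these, 4 were the mPFC library of mouse 15 in the CSDS saline group. It had 21.9 CPM of Fos where the next mouse had 11.8, 66.6 CPM of Junb where the next had 50.3, 147.8 CPM of Arc where the next had 89.8, and 7.56 CPM of Egr2 where the next had 3.79.

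The other 5 were in different mice. Fosb was at 17.5 CPM in the mPFC of CTRL saline mouse 35, with the next mouse at 14.0. Egr2 was at 6.23 CPM in the mPFC of CTRL ketamine mouse 36, with the next at 3.87, and at 1.81 CPM in the vHipp of CSDS saline mouse 4, with the next at 0.768. Egr4 was at 26.9 CPM in the mPFC of CSDS ketamine mouse 20, with the next at 19.8. Npas4 was at 9.05 CPM in the vHipp of CTRL ketamine mouse 40, with the next at 5.40. What set these libraries apart was not tested.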

How the results depend on the processing

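Region calls held in every setting run, at 9 or 10 of the 10 genes, and with the replicate block (the mouse) 9 were called. The block changed no other adjusted call, and stress and ketamine effects gave 0 adjusted calls among the 10 genes throughout. DESeq2 called 14 of all genes for stress in the vHipp.

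Counts at an unadjusted p under 0.05 depended on the setting, and the cause was not tested. For stress in the mPFC, 3 (3.52% of all genes) became 5 with the library set as a covariate (3.75%) and 1 to 5 without 1 set (3.05% to 4.18%). For ketamine there, 3 (3.07%) became 1 with that covariate (2.95%), 7 without mouse 15 (3.09%) and 0 to 4 without 1 set (2.61% to 4.83%), with 0 when set 3, 6 or 10 was left out. For stress in the vHipp, 2 (9.71%) became 1 with DESeq2 (8.84%) or filterByExpr (11.8%), and 1 to 3 without 1 set (6.9% to 11.3%). Correlated genes between regions went from 3 to 5 with set means subtracted, where p-values may be too small, and to 1 without mouse 15.

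Estimates near 0 changed sign. Egr4 under stress in the vHipp was −0.0018, and 0.00255 with DESeq2, 0.0042 with filterByExpr, 0.0020 with no filter and 0.0017 with RLE. Under ketamine there it was 0.0012 with the library set as a covariate. Npas4 under stress in the mPFC was −0.038 without mouse 15. Without 1 set, Npas4 ran from −0.049 to 0.088 there and from −0.027 to 0.16 in the vHipp, and Egr3 under ketamine in the mPFC from −0.019 to 0.040. Egr4 under stress in the vHipp ran from −0.028 to 0.058. Under ketamine in the vHipp, Fos ran from −0.21 to 0.050, Fosb from −0.033 to 0.073, Egr1 from −0.039 to 0.076, Egr2 from −0.097 to 0.28 and Egr4 from −0.036 to 0.036. The r of Egr2 between regions ran from −0.0030 (without mouse 18) to 0.12. Depth limits Egr2 in the vHipp most, at a median of 0.481 CPM.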

Other observations

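The correlation between regions of the same mouse was also measured in other gene groups. Of 25 other rapid response genes 6 passed the permutation test adjusted over all genes, against 30.4% of expressed genes. The clock gene Per1 had r = 0.68, the kinase gene Sik1 0.60, the AP-1 subunit Jund 0.54 and the zinc finger factor Klf2 0.48. Of 13 upstream regulators 4 passed, with Creb1 at 0.75, Mef2a at 0.64, Mef2d at 0.52 and Camk4 at 0.44. Of 7 glucocorticoid-responsive genes 2 passed, Zbtb16 at 0.72 and Ddit4 at 0.51. Of 15 delayed activity-regulated genes 1 passed, Homer1 at 0.50. Of 5 erythroid markers 4 passed, with Hbb-bt at 0.66. P2ry12 of the 5 microglial (0.55), Pecam1 of the 5 endothelial (0.96) and Rgs9 of the 6 striatal neuron markers (0.67) passed as well. None of the excitatory neuron, inhibitory neuron, astrocyte, oligodendrocyte, choroid plexus, cortical layer or hippocampal subfield markers passed. With the means of the library sets also subtracted, when 19.8% of expressed genes passed, the counts were lower in 6 of these lists. They were 3 of 25 rapid response genes, 0 of 15 delayed genes, 3 of 13 upstream regulators, 1 of 7 glucocorticoid-responsive genes, 0 of 5 microglial and 3 of 5 erythroid markers.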
